A study of Mus musculus with 8 samples.

Results

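Enteroendocrine cells of 3 mouse reporter lines were compared after 4 days of BMP4, to see which genes of hormone cell identity still separated the lines and which were held in common. The cells came from the 4 day wells of the 5 plates that carried every condition, namely a single Gip line plate, Gcg line plates 1 and 2 and Tac1 line plates 1 and 2. A well was kept when it held at least 2000 transcripts outside spike-in and mitochondrial rows. This left 311 cells of 960 such wells, out of 1006 kept cells and 3072 wells in the whole series: 135 cells of the Gip line, 95 and 24 cells of Gcg plates 1 and 2, and 41 and 16 cells of Tac1 plates 1 and 2.

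The study sorted live reporter-positive cells from mouse intestinal organoids, 3-dimensional cultures of gut epithelium, into 384-well plates and sequenced each well with SORT-seq, a 3' end method with molecular identifiers and a plate form of CEL-seq2. The lines were titled Gip-Cre, Gcg-Venus and Tac1-Cre (genotypes Gip reporter, Gcg reporter and Tac1 reporter), all on C57BL/6. On each plate, columns 13 to 24 held the 4 day BMP4 wells, and other columns of the same plate held untreated wells, of which 286 were kept on the 5 plates. Every line had the same BMP4 exposure, so the comparison at 4 days is between lines and not between treatments. A Cre reporter (Gip and Tac1 lines) can stay on after the driving gene is switched off, whereas the Venus reporter (Gcg line) has no such recombination step. Nothing in the labels says that plates of a line were separate cultures or animals, and the p-values therefore reflect spread from plate to plate alone, which may be technical. The Gip line is 1 plate and was assumed to vary like the plates of the other lines.

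Enteroendocrine cells are the hormone cells of the gut epithelium. Textbook types include K cells (Gip), L cells (Gcg, Pyy), I cells (Cck), N cells (Nts), D cells (Sst), X cells (Ghrl), S cells (Sct) and enterochromaffin cells, which make serotonin and often substance P from Tac1. BMP ligands are more abundant toward the villus, bind serine/threonine kinase receptors and act through Smad1, Smad5 and Smad8 with Smad4. Their usual target genes include Id1, Id2 and Id3, whose proteins bind and block basic helix-loop-helix transcription factors.

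The promoters of the hormone genes that the comparison turns on are printed here, 4 that separated the lines at 4 days and Sct, which was high in all of them. Each run is the 250 bases before the RefSeq gene start in GRCm38.p6, 5' to 3' on the gene's strand. Capitals mark matches to CANNTG, the letters of an E-box, and to GGCGCC, a Smad-type GC-rich motif; both read the same on either strand and no matches overlapped.
Gip (chr11:96024295-96024544, plus strand): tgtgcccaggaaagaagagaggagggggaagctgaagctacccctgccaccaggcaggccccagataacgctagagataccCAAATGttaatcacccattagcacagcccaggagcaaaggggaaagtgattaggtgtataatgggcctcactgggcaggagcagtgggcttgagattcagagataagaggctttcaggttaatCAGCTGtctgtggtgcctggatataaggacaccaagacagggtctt
Gcg (chr2:62483654-62483903, minus strand): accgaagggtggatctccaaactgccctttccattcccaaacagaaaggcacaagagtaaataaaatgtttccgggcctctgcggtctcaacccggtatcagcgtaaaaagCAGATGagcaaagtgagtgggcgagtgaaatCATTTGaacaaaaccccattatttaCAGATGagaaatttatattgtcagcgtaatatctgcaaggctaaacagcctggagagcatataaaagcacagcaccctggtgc
Nts (chr10:102490419-102490668, minus strand): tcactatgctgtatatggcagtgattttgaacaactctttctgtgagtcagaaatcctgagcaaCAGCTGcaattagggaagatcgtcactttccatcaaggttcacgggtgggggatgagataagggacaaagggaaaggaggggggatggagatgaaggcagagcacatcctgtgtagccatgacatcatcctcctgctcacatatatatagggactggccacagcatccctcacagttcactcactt
Tac1 (chr6:7554811-7555060, plus strand): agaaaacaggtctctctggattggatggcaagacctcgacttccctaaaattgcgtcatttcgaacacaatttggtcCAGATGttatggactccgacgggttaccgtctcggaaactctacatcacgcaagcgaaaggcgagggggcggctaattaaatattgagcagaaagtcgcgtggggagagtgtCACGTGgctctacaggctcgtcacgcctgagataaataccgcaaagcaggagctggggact
Sct (chr7:141279134-141279383, minus strand): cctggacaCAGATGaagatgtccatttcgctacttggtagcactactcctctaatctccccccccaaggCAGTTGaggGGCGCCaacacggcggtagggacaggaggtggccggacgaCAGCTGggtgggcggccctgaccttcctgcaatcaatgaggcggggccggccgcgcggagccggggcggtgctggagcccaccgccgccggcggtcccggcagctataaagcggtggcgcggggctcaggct
CANNTG was found 2 times before Gip, 3 times before Gcg, once before Nts, 2 times before Tac1 and 3 times before Sct. At least 1 match was present in 66.2% of the 32851 mouse promoter windows of this length. GGCGCC was found before Sct and not in the other 4 windows, and 9.6% of all windows held it.

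The 4 day sums over kept cells held 875054 transcripts for the Gip plate, 1251615 and 172183 for the Gcg plates, and 203090 and 105109 for the Tac1 plates. The 2 Tac1 plates and Gcg plate 2 were thus the shallowest and give the least precise values. Median transcripts per kept cell were 4420 on the Gip plate, 9898 and 5587 on the Gcg plates, and 3983 and 4425 on the Tac1 plates. The share of 4 day wells kept was 70.3% on the Gip plate, 49.5% and 12.5% on the Gcg plates, and 21.4% and 8.3% on the Tac1 plates. The Tac1 tables were deposited in another form than the Gip and Gcg tables (values rounded to 2 decimals, mitochondrial rows present), so file form and line cannot be told apart in any comparison with Tac1. Xist stood at 4.6 CPM on the Gip plate, at 2.4 and 0 CPM on the Gcg plates, and at 393.9 and 304.4 CPM on the Tac1 plates, while the Y-linked Ddx3y was at 123.4 CPM, at 62.3 and 69.7 CPM, and at 0 and 19 CPM in the same order of plates. The sex chromosome genes thus also split the Tac1 plates from the others, and their part in the line differences was not tested. CPM here is a gene's share of the transcripts in a plate's summed kept cells, scaled to a common total, and in such sums fewer cells expressing a gene and less RNA per cell cannot be told apart.

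The lines remained distinct after 4 days of BMP4. Of 5660 genes tested, 630 (11.1%) differed among the 3 lines with edgeR's quasi-likelihood F test at a Benjamini-Hochberg adjusted p under 0.05, the test behind every adjusted p below. Between the Gip and Gcg lines 121 genes (2.14%) were called, between the Gip and Tac1 lines 210 (3.71%), and between the Gcg and Tac1 lines 628 (11.1%). The pairs were not equally well measured, since the Gip line is 1 plate, so the order of these counts is not a ranking of distance. Among the 140 tested genes of 20 lists of intestinal and endocrine genes, 77 (55.0%) differed among the lines, against 11.1% of all tested genes. The lists were chosen with earlier results of these data known, and they hold the reporter genes of the sort and markers of the sorted cell types. A gene could also enter the test through a single plate where it was high. The excess of listed genes is therefore partly built in, here and in the list counts below. All 4 day calls depended on Gcg plate 2: without it 0 genes were called in any pair with edgeR, where 779, 892 and 1397 of 9084 genes had an unadjusted p under 0.05 for Gip over Gcg, Gip over Tac1 and Gcg over Tac1. That fit draws the spread from the 2 Tac1 plates alone, and no other tool was run on it. Adding the 2 further Tac1 plates that held 4 day wells only ended the calls described below for Gip, Nts, Etv1 and Fabp5 in Gip over Gcg and for Nts, Cck, Chgb, Iapp, Hhex and Scgn in Gip over Tac1. DESeq2 ended those for Gip, Iapp, Asic5, Rbp4, Bambi and Fabp2 in Gip over Gcg, for Cck, Ghrl, Iapp, Asic5, Rbp4, Hhex, Cnr1, Isl1 and Scgn in Gip over Tac1, and for Cck and Scgn in Gcg over Tac1.

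Most of the genes called at 4 days had already separated the same lines before treatment, in other wells of the same plates. Untreated wells gave 475 calls of 9168 genes for Gip over Gcg (5.18%), 641 for Gip over Tac1 (6.99%) and 1508 for Gcg over Tac1 (16.4%). Over the 5482 genes tested in both, 96 were called in both with the same sign for Gip over Gcg, which is 80.7% of the 4 day calls and 24.1% of the untreated calls. For Gip over Tac1 the 122 genes shared were 61.0% of the 4 day calls and 23.2% of the untreated calls. For Gcg over Tac1 the 406 genes shared with the same sign were 68.8% of the 4 day calls and 34.3% of the untreated calls. The untreated calls kept their sign at 4 days in 95.7%, 93.9% and 92.0% of genes for the 3 pairs in that order, against 69.7%, 68.6% and 72.5% of all genes tested. Their median size at 4 days, with the untreated size after it, was 2.50 and 2.97, 2.08 and 2.67, and 1.79 and 2.25 on the log2 scale. As the genes were picked by their untreated calls, the smaller size at 4 days does not show that differences shrank. Untreated and 4 day wells share plates, so a difference between plates can recur in both and add to the kept signs. The 4 day and untreated sums differ in depth, so a lost call is not by itself a smaller difference.

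**Figure D1:**
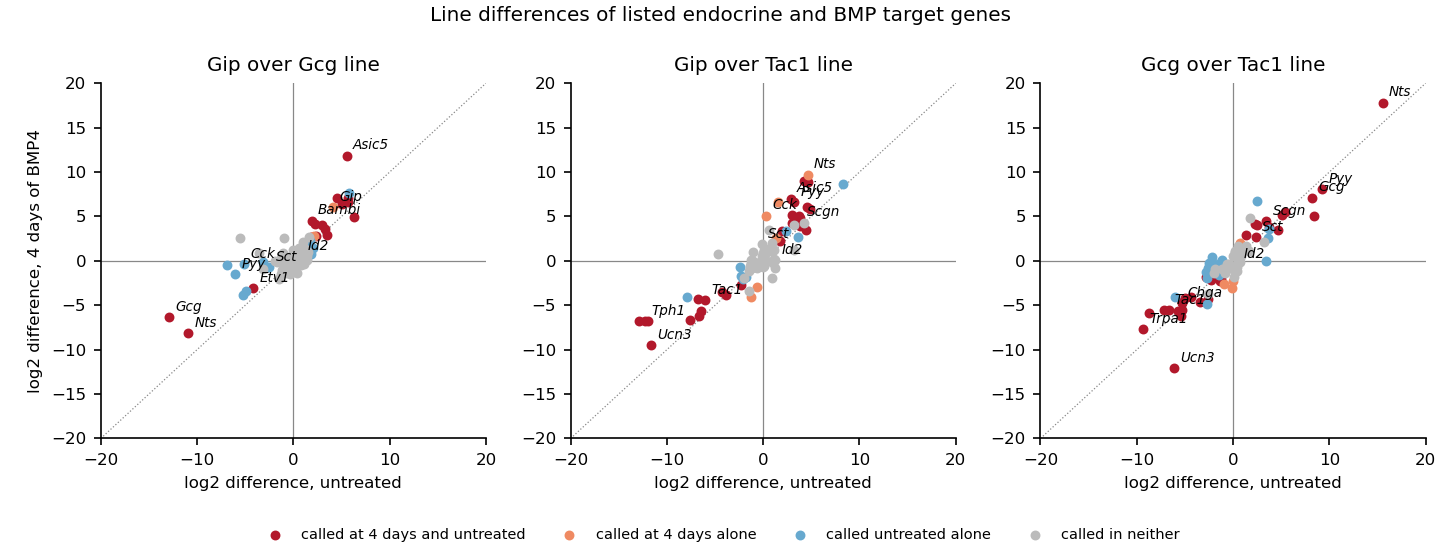
Log2 difference between lines after 4 days of BMP4 (vertical axis) against the same difference in untreated wells (horizontal axis) for 86 genes of the fixed lists, 1 panel for each pair (Gip over Gcg, Gip over Tac1, Gcg over Tac1). Points are coloured by where the gene was called: 16, 28 and 33 genes were called in both conditions in the 3 panels, and 2, 6 and 4 at 4 days alone. Differences against a line without transcripts of a gene depend on the prior count of the fit.

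Most tested hormone genes separated the lines: 10 of the 12 differed among them (any-difference background 11.1%). The list includes Gip, Gcg and Tac1, the reporter genes by which the cells were sorted. Between the Gip and Gcg lines 2 hormones were higher and 2 lower in Gip (backgrounds 0.972% and 1.17%). Between the Gip and Tac1 lines 5 were higher and 2 lower (1.43% and 2.28%), and between the Gcg and Tac1 lines 6 were higher and 2 lower (5.49% and 5.6%). The median log2 difference over the tested hormones was 0.54, 4.13 and 0.86 for the 3 pairs, against -0.03, 0.02 and 0.07 over all tested genes.

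**Figure D2:**
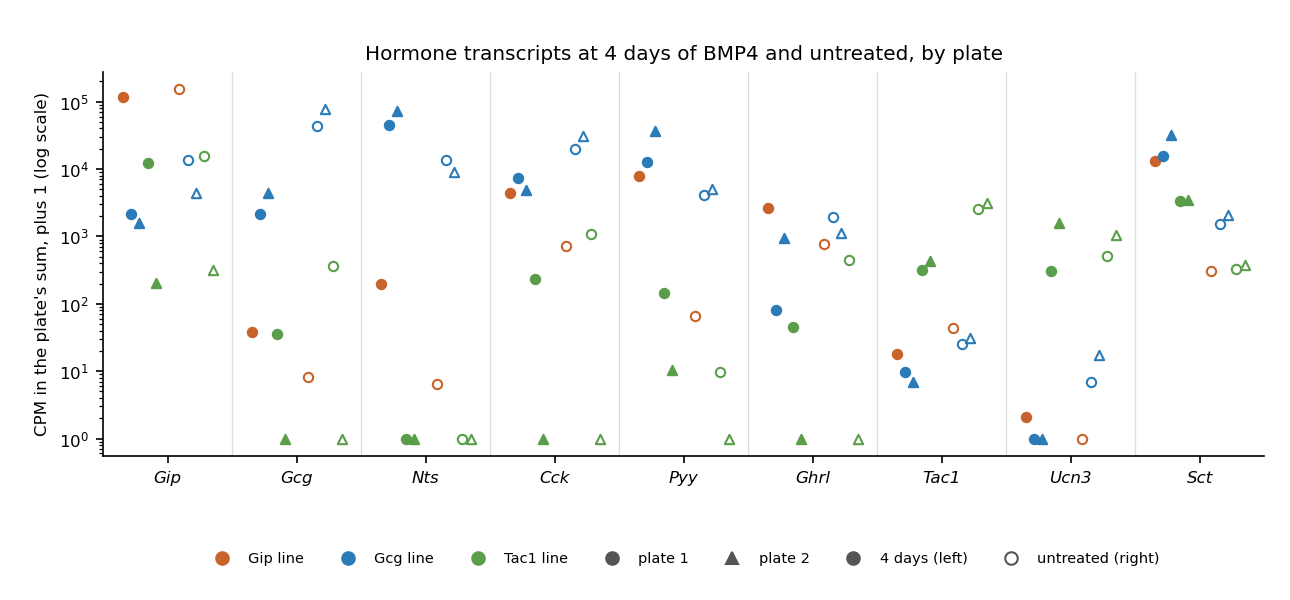
Level of hormone genes in the 5 sums at 4 days and the 5 untreated sums, in CPM plus 1 on a log axis, with Gip, Gcg and Tac1 plates side by side. Each point is 1 plate, filled at 4 days and open in untreated wells. At 4 days Gip is at 117452 CPM on the Gip plate, Nts is at 45782 and 72963 CPM on the Gcg plates and at 0 on the Tac1 plates, and Sct is at 3368 CPM or more on every plate.

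Gip, the incretin of K cells, dominated the Gip line. It reached 117452 CPM on the Gip plate, against 2143 and 1557 CPM on the Gcg plates and 12423 and 199.8 CPM on the Tac1 plates. Gip plate 1 thus stood above every plate of the other lines, while the Tac1 plates were far apart, with 93.2% of the Tac1 plate 1 transcripts in 1 cell. The difference from Gcg passed the test (log2 6.08 ± 1.47 SE, adjusted p = 0.045), but it was called in 7 of 13 alternatives (adjusted p 8.1e-22 to 0.74) and not without Gcg plate 1 (log2 6.38, adjusted p = 0.16). The difference from Tac1 did not pass (log2 4.25 ± 1.38, adjusted p = 0.12). In untreated wells of the Gip plate the level was 151809 CPM, and the 4 day change in that line did not pass the test (log2 -0.25).

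Gcg, the proglucagon gene that gives GLP-1 in L cells, was still higher on both Gcg plates than on any other plate. It stood at 36.6 CPM on the Gip plate, at 2120 and 4350.0 CPM on the Gcg plates, and at 34.5 and 0 CPM on the Tac1 plates. Near-empty 4 day wells of the Gcg plates, with under 500 transcripts, held Gcg at 25726 and 58594 CPM, above the kept wells. The part of free RNA in the Gcg level of kept cells was not tested. Gcg was lower in Gip than in Gcg (log2 -6.32 ± 0.98, adjusted p = 0.0044) and higher in Gcg than in Tac1 (log2 7.11 ± 0.80, adjusted p = 7.2e-05). Its level in the Gcg line had nevertheless fallen steeply: the same plates held 42919 and 77634 CPM in untreated wells, a change of log2 -4.12 that passed the test.

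Nts, the neurotensin gene, was the most abundant hormone of the Gcg line at 4 days. It reached 196.6 CPM on the Gip plate, 45782 and 72963 CPM on the Gcg plates, and 0 CPM on both Tac1 plates. On the Gip plate Nts transcripts were found in 10 of 135 cells, and 3 of these held 95.9% of them. Nts was lower in Gip than in Gcg (log2 -8.11 ± 1.38, adjusted p = 0.0074). Against a floor of 3 transcripts over Tac1 plates 1 and 2, it was at least 5041.1-fold higher in Gcg (adjusted p = 3.4e-05) and at least 20.2-fold higher in Gip (adjusted p = 0.016). These bounds do not extend to the 2 further Tac1 plates with 4 day wells only, which did hold Nts. With those plates added the Gip over Tac1 call was lost and the difference changed sign. Untreated wells of the Gcg plates held 13567 and 9186 CPM, and the rise in that line passed the test (log2 2.50).

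Pyy, the peptide YY gene of L cells, was high in both the Gip and Gcg lines and low in the Tac1 line. It stood at 7955 CPM on the Gip plate, at 12571 and 36845 CPM on the Gcg plates, and at 142.8 and 9.5 CPM on the Tac1 plates. The Gip and Gcg lines did not differ beyond the spread between plates (log2 -1.49 ± 1.04, 95% interval -3.72 to 0.73, adjusted p = 0.74). Both exceeded Tac1, by log2 6.59 ± 1.08 in Gip (adjusted p = 0.0029) and by log2 8.08 ± 1.1 in Gcg (adjusted p = 0.00031). In untreated wells Pyy was at 66.0 CPM on the Gip plate, and its rise with BMP4 was larger in Gip than in Gcg by log2 4.65 ± 0.77 (adjusted p = 0.0011).

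Cck, the cholecystokinin gene of I cells, changed in opposite directions in the plate sums of the Gip and Gcg lines. It stood at 4356 CPM on the Gip plate, at 7394 and 4850 CPM on the Gcg plates, and at 236.3 and 0 CPM on the Tac1 plates. The difference of Gip from Gcg in these sums did not pass (log2 -0.40 ± 1.00, 95% interval -2.52 to 1.73, adjusted p = 0.97). The cells themselves were less alike: 3 cells held 63.1% of the Cck transcripts of the Gip plate, and at least 5 were found in 12.8% of Gip line cells, in 47.9% and 75.0% on the Gcg plates, and in 4.9% and 0% on the Tac1 plates. Both lines exceeded Tac1, Gip by log2 5.10 ± 1.03 (adjusted p = 0.011) and Gcg by log2 5.50 ± 0.99 (adjusted p = 0.0024). In untreated wells the levels were 713.7 CPM on the Gip plate and 20039 and 30487 CPM on the Gcg plates. Over 4 days Cck rose in Gip (log2 2.73 ± 0.61) and fell by 1.91 ± 0.42 on the log2 scale in Gcg, and both changes passed the test. The share of Gip line cells with at least 5 Cck transcripts changed little. It was 7.9% untreated (Wilson 95% interval 3.4 to 17.3) and 12.8% at 4 days (8.1 to 19.5). Untreated shares on the Gcg plates were 67.2% and 85.3%. A rise across Gip line cells is thus not shown.

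Ghrl, the ghrelin gene, was at 2626 CPM on the Gip plate, at 80.7 and 940.9 CPM on the Gcg plates, and at 44.3 and 0 CPM on the Tac1 plates. On Gcg plate 2, 1 cell held 77.7% of the transcripts. Gip exceeded Tac1 (log2 6.59 ± 1.13, adjusted p = 0.0041), whereas the difference from Gcg did not pass (log2 2.57 ± 0.92, adjusted p = 0.21). Sst, the somatostatin gene of D cells, was at 48783 CPM on the Gip plate, at 38.4 and 511.1 CPM on the Gcg plates, and at 6185 and 0 CPM on the Tac1 plates. The 2 Tac1 plates disagreed completely on Sst, and no pair passed the test (Gip over Gcg log2 7.69 ± 1.95, adjusted p = 0.061, called in 7 of 13 alternatives; Gip over Tac1 log2 4.01 ± 1.70, adjusted p = 0.26). Iapp, the amylin gene, was at 240.0 CPM on the Gip plate, at 0 and 11.6 CPM on the Gcg plates, and at 4.9 and 0 CPM on the Tac1 plates. Gip was called higher in both comparisons (adjusted p = 0.0032 and 0.0075). On the Gip plate, though, 1 cell held 50.1% of the Iapp transcripts. At least 5 were found in 1.5% of its cells, against 11.1% of its untreated cells, where the level was 1412.7 CPM.

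The peptide genes Tac1 and Ucn3 were still higher on the Tac1 plates than on the plates of the other lines. Tac1, the substance P precursor, stood at 17.1 CPM on the Gip plate, at 8.8 and 5.8 CPM on the Gcg plates, and at 315.1 and 428.1 CPM on the Tac1 plates. Both Tac1 plates were above all others, and the gene was lower in the Gip line (log2 -4.46 ± 0.67, adjusted p = 0.002) and in the Gcg line (log2 -5.57 ± 0.58, adjusted p = 4e-05) than in the Tac1 line. The untreated wells of the Tac1 plates held 2568 and 3175 CPM, and the fall in that line passed the test (log2 -2.76). Ucn3, the urocortin 3 gene, was at 1.1 CPM on the Gip plate, at 0 CPM on both Gcg plates, and at 305.3 and 1579 CPM on the Tac1 plates. It was at least 351.1-fold lower in Gcg than in Tac1 (adjusted p = 7.2e-05) and was called lower in Gip (adjusted p = 0.002), where 1 transcript was counted. Untreated wells of the Tac1 plates held 518.3 and 1065 CPM, and the change in that line did not pass the test (log2 0.13 ± 0.33, adjusted p = 0.91). On Tac1 plate 2, 1 cell held 80.7% of Ucn3 and 73.4% of Tac1 transcripts.

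Enterochromaffin genes set the Tac1 line apart from the others. Of 14 tested, none separated Gip from Gcg, 7 were lower and none higher in Gip than in Tac1 (backgrounds 2.28% and 1.43%), and 8 were lower and 1 higher in Gcg than in Tac1 (5.6% and 5.49%). Tph1, the rate-limiting enzyme of serotonin synthesis, stood at 16 CPM on the Gip plate, at 29.6 and 11.6 CPM on the Gcg plates, and at 1738 and 1665 CPM on the Tac1 plates. It was lower than in Tac1 in both lines, by log2 -6.75 ± 0.81 in Gip (adjusted p = 0.00066) and by log2 -6.24 ± 0.59 in Gcg (adjusted p = 2.4e-05). Lmx1a, a homeobox factor of enterochromaffin cells, was at 5.7 CPM on the Gip plate, at 12.0 and 17.4 CPM on the Gcg plates, and at 576.1 and 551.8 CPM on the Tac1 plates (log2 -6.61 ± 0.74 for Gip over Tac1, adjusted p = 0.00045). Trpa1, an irritant-sensing channel, was at 6.9 CPM, at 3.2 and 5.8 CPM, and at 457.9 and 1027.5 CPM on the Gip, Gcg and Tac1 plates. Its log2 difference was -6.76 ± 0.86 for Gip over Tac1 (adjusted p = 0.00066). Reg4, a secreted lectin, was at 4.6 CPM on the Gip plate, at 89.5 and 5.8 CPM on the Gcg plates, and at 16254 and 45068 CPM on the Tac1 plates, where 1 cell of plate 2 held 66.1%. For all 4 genes the Tac1 plates did not overlap with any other plate.

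The chromogranins followed the enterochromaffin pattern. Chga, a granule protein used as a general endocrine marker, was at 284.6 CPM on the Gip plate, at 866.9 and 813.1 CPM on the Gcg plates, and at 18731 and 23014 CPM on the Tac1 plates. It was lower than in Tac1 in Gip (log2 -6.24 ± 1.05, adjusted p = 0.0035) and in Gcg (log2 -4.79 ± 0.71, adjusted p = 0.00058). Chgb, its paralog, was at 1779 CPM on the Gip plate, at 1183 and 1464 CPM on the Gcg plates, and at 18110.2 and 20255 CPM on the Tac1 plates. It too was lower than in Tac1, in Gip by log2 -3.48 ± 0.89 (adjusted p = 0.042) and in Gcg by log2 -4.02 ± 0.68 (adjusted p = 0.0017). Without Gcg plate 1 these Chgb calls were lost, with adjusted p of 0.085 for Gip over Tac1 (range over 13 alternatives 4.2e-07 to 0.43) and 0.055 for Gcg over Tac1 (range over 15 alternatives 8.3e-15 to 0.21). The 10 pan-endocrine markers, which include both genes, summed to 7206.4 CPM on the Gip plate, 5731.0 and 8247.0 CPM on the Gcg plates, and 40637.2 and 46389.9 CPM on the Tac1 plates. Most of the sum on the Tac1 plates was Chga and Chgb, so it does not show more of the other markers there. Of the 10 markers, 1 (Cpe) was higher and 2 lower in Gip than in Tac1 (backgrounds 1.43% and 2.28%). None was higher and 3 were lower in Gcg than in Tac1 (5.49% and 5.6%).

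Several genes linked to K, D and X cells were higher in the Gip line. Of 9 listed genes 6 were tested, and all 6 differed among the lines. In Gip 3 were higher and none lower than in Gcg (backgrounds 0.972% and 1.17%), and 4 higher and 2 lower than in Tac1 (1.43% and 2.28%). Genes high on a single plate could enter the test through that plate, which partly sets these counts. Rbp4, a retinol carrier made by K cells, was at 2616 CPM on the Gip plate, at 11.2 and 63.9 CPM on the Gcg plates, and at 78.8 and 0 CPM on the Tac1 plates. Gip was higher by log2 6.66 ± 0.94 than Gcg (adjusted p = 0.0023) and by log2 5.81 ± 0.92 than Tac1 (adjusted p = 0.0024). Fabp5, a fatty acid binding protein, was at 1967 CPM on the Gip plate, at 210.1 and 406.5 CPM on the Gcg plates, and at 192.0 and 47.6 CPM on the Tac1 plates. Its differences were log2 2.82 ± 0.60 over Gcg (adjusted p = 0.024) and log2 3.95 ± 0.64 over Tac1 (adjusted p = 0.0028). Hhex, a homeobox factor required for D cell identity in the pancreas of mice, was at 121.1 CPM on the Gip plate, at 0.8 and 0 CPM on the Gcg plates, and at 4.9 and 0 CPM on the Tac1 plates (adjusted p = 0.0047 against Gcg and 0.024 against Tac1). Pax4, an endocrine progenitor factor, went the other way, at 8.0 CPM on the Gip plate, 11.2 and 34.8 CPM on the Gcg plates, and 123.1 and 152.2 CPM on the Tac1 plates, and was lower in both lines than in Tac1.

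Of 18 listed sensing genes 7 were tested, and 3 were higher and none lower in Gip than in Gcg (backgrounds 0.972% and 1.17%). Against Tac1, 3 were higher and 1 lower in Gip (1.43% and 2.28%). A gene entered the test when its level sufficed on a single plate, so genes high on the Gip plate alone could enter through it. These counts therefore do not show that sensing genes as a group mark the Gip line. The 3 higher genes were the same in both comparisons, namely Asic5, Cnr1 and the prostaglandin E receptor gene Ptger3. Asic5, the bile acid-sensitive ion channel, was at 862.8 CPM on the Gip plate, at 0 CPM on both Gcg plates, and at 9.8 and 0 CPM on the Tac1 plates. Against a floor of 3 transcripts over the Gcg line, it was at least 409.5-fold higher in Gip (adjusted p = 5e-05). Cnr1, a cannabinoid receptor, was at 184.0 CPM on the Gip plate, at 7.2 and 0 CPM on the Gcg plates, and at 9.8 and 0 CPM on the Tac1 plates, with adjusted p of 0.0047 against Gcg and 0.011 against Tac1.

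Genes linked to L, I and N cells were higher in both the Gip and Gcg lines than in the Tac1 line. Of 7 tested, none was higher and 1 lower in Gip than in Gcg (backgrounds 0.972% and 1.17%), 5 were higher in Gip than in Tac1 (1.43%) and 4 higher in Gcg than in Tac1 (5.49%), with none lower in either. Etv1, an ETS factor, was the gene lower in Gip than in Gcg, at 40.0 CPM on the Gip plate, at 226.9 and 545.9 CPM on the Gcg plates, and at 14.8 and 0 CPM on the Tac1 plates (log2 -3.10 ± 0.71, adjusted p = 0.035). Scgn, the calcium-binding protein secretagogin, was at 768.0 CPM on the Gip plate, at 604.8 and 1243 CPM on the Gcg plates, and at 64.0 and 0 CPM on the Tac1 plates. Its differences from Tac1 were log2 4.32 ± 0.79 in Gip (adjusted p = 0.0058) and log2 4.45 ± 0.73 in Gcg (adjusted p = 0.0013). Isl1, a LIM-homeobox factor of several hormone cell types, was at 972.5 CPM on the Gip plate, at 127.8 and 220.7 CPM on the Gcg plates, and at 83.7 and 0 CPM on the Tac1 plates. Gip was higher than Tac1 (log2 4.29 ± 0.76, adjusted p = 0.0049) and did not pass against Gcg (log2 2.64 ± 0.68, adjusted p = 0.065). Ffar4, a long-chain fatty acid receptor, was at 115.4 CPM on the Gip plate, at 24.8 and 29.0 CPM on the Gcg plates, and at 0 CPM on both Tac1 plates. It was at least 11.9-fold higher in Gip than over these 2 Tac1 plates (adjusted p = 0.0079). On the 2 further Tac1 plates with 4 day wells only it was at 0 and 20.2 CPM.

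Transcription factors of the enteroendocrine lineage divided the lines in more than a single way, with 12 of 22 tested differing among them (background 11.1%). Pax6, a driver of proglucagon expression, was at 645.7 CPM on the Gip plate, at 167.8 and 412.4 CPM on the Gcg plates, and at 73.9 and 47.6 CPM on the Tac1 plates (Gip over Tac1 log2 3.34 ± 0.59, adjusted p = 0.0049). Foxa2, a forkhead factor of gut endoderm, was instead lowest in Gcg, at 100.6 CPM on the Gip plate, at 7.2 and 0 CPM on the Gcg plates, and at 177.3 and 114.2 CPM on the Tac1 plates. Gip exceeded Gcg by log2 4.11 ± 0.70 (adjusted p = 0.0063), and Gcg was below Tac1 by log2 -4.69 ± 0.67 (adjusted p = 0.00047). Rfx6, an endocrine lineage factor named after its values were seen, was highest in Gip, at 618.2 CPM on the Gip plate, at 106.3 and 75.5 CPM on the Gcg plates, and at 132.9 and 57.1 CPM on the Tac1 plates. It was higher in Gip than in Gcg (log2 2.81 ± 0.52, adjusted p = 0.01) and than in Tac1 (log2 2.61 ± 0.54, adjusted p = 0.014).

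Single genes, described here for their pattern and not as a list, were high in the Gip and Tac1 lines and low in the Gcg line. Gpx3, a secreted glutathione peroxidase, was at 913.1 CPM on the Gip plate, at 6.4 and 5.8 CPM on the Gcg plates, and at 773.1 and 1417.6 CPM on the Tac1 plates. It was higher in Gip than in Gcg by log2 7.20 ± 0.69 (adjusted p = 0.00011) and lower in Gcg than in Tac1 by log2 -7.52 ± 0.67 (adjusted p = 2.4e-05). Ptprn, a dense-core granule membrane protein, was at 172.6 CPM on the Gip plate, at 24.8 and 23.2 CPM on the Gcg plates, and at 600.7 and 551.8 CPM on the Tac1 plates (Gip over Gcg log2 2.90 ± 0.52, adjusted p = 0.0082). Bex2, which is common in endocrine cells, was at 83.4 CPM on the Gip plate, at 8.8 and 0 CPM on the Gcg plates, and at 379.1 and 266.4 CPM on the Tac1 plates (Gip over Gcg log2 3.58 ± 0.67, adjusted p = 0.011). Gpr133, an adhesion receptor, was the reverse, at 4.6 CPM on the Gip plate, at 469.8 and 824.7 CPM on the Gcg plates, and at 0 CPM on both Tac1 plates (Gip over Gcg log2 -6.94 ± 0.82, adjusted p = 0.00097).

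Secretin was the hormone common to all lines after BMP4. Sct reached 13302 CPM on the Gip plate, 15867 and 32251 CPM on the Gcg plates, and 3368 and 3454 CPM on the Tac1 plates. In untreated wells it had been at 302.7 CPM, at 1519 and 2053 CPM, and at 323.1 and 374.1 CPM on the same plates, so every plate was above every untreated plate. The rise passed the test in each line, at log2 5.57 ± 0.67 in Gip, 3.81 ± 0.44 in Gcg and 3.50 ± 0.45 in Tac1. The rises were not shown to differ: the difference in change was log2 1.76 for Gip over Gcg (95% interval 0.36 to 3.16, adjusted p = 0.82), 2.07 for Gip over Tac1 (0.64 to 3.51, adjusted p = 0.36) and 0.31 for Gcg over Tac1 (-0.85 to 1.47, adjusted p = 0.94). Levels at 4 days were not equal, since Gcg exceeded Tac1 (log2 2.65 ± 0.70, adjusted p = 0.025), a call lost without Gcg plate 1 (adjusted p = 0.072) and without Tac1 plate 1 (adjusted p = 0.068; range over 15 alternatives 1.2e-06 to 0.24). Gip differed from Gcg by log2 -0.72 (95% interval -2.50 to 1.05, adjusted p = 0.90) and from Tac1 by log2 1.92 (0.26 to 3.58, adjusted p = 0.23).

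Secretin-positive cells were found at 4 days in every line, whereas few untreated cells of the Gip and Tac1 lines were positive. With every cell thinned to 2000 transcripts, at least 5 Sct transcripts were found in 63.2% of Gip line cells (Wilson 95% interval 54.7 to 70.9, 133 cells), in 60.6% (50.5 to 69.9, 94 cells) and 75.0% (55.1 to 88.0, 24 cells) on the Gcg plates, and in 56.1% (41.0 to 70.1, 41 cells) and 53.3% (30.1 to 75.2, 15 cells) on the Tac1 plates. All 5 intervals overlapped, and they cover counting error only. Among wells with at least 5 pan-endocrine marker transcripts the shares were 67% on the Gip plate, 96.4% and 94.4% on the Gcg plates, and 56.1% and 80.0% on the Tac1 plates, a wider range. This restriction was not alike across lines: it kept 58.9% of cells on Gcg plate 1 and 100.0% on Tac1 plate 1. Near-empty wells of Tac1 plate 1 averaged 5.72 Chga and 6.07 Chgb transcripts, both on the marker list. The wider range is therefore not read as a difference between lines. At a minimum of 10 transcripts they were 48.1% on the Gip plate, 57.4% and 70.8% on the Gcg plates, and 29.3% and 33.3% on the Tac1 plates, over all kept cells. Untreated shares on the same plates were 1.6%, then 32.8% and 32.0%, then 1.5% and 0%. As 2 plates against 2 cannot give a two-sided exact permutation p below 1 in 3, no test was made. Sct was found in wells that also reached the minimum of 5 for other hormones. These were 83 of 129 Gip-positive cells of the Gip plate and 50 of 56 and 18 of 21 Nts-positive cells of the Gcg plates. On Tac1 plate 1 they were 22 of 38 Sst-positive cells. On Tac1 plate 2 no cell was Sst-positive. On the Gcg plates 7 of 38 and 0 of 3 cells without Nts were Sct-positive, so Sct there lay mostly in Nts-positive wells. On the Gip plate 1 of 4 cells without Gip was Sct-positive. Near-empty wells averaged 8.77 Gip transcripts on the Gip plate, 5.83 Nts on Gcg plate 1 and 5.25 Sst on Tac1 plate 1, above that minimum. With 129 of 133 cells Gip-positive, overlap with Gip on the Gip plate mostly restates the Sct share. Joint expression within a cell was not tested.

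**Figure D3:**
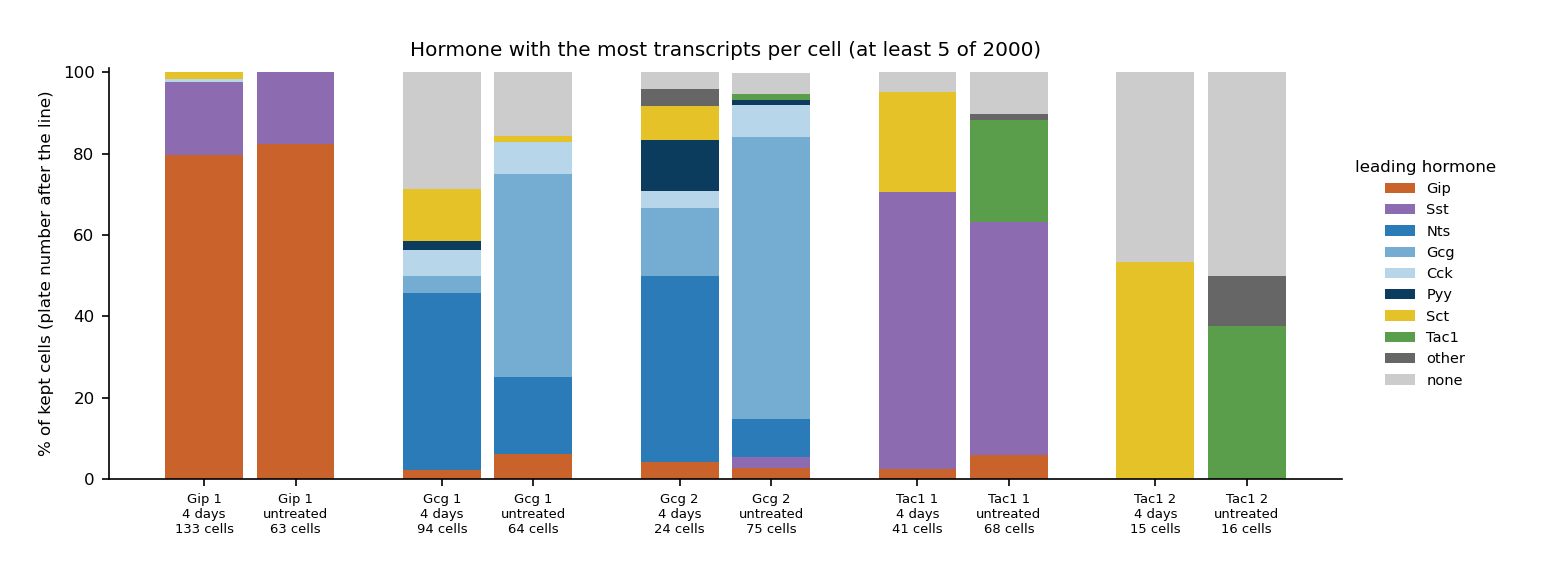
Share of kept cells led by each hormone (the hormone with most transcripts in a cell thinned to 2000, with a minimum of 5), 1 bar for each plate, 4 day bars beside untreated bars. At 4 days Gip leads 106 of 133 Gip line cells, Nts leads 41 of 94 and 11 of 24 Gcg line cells, and no Tac1 line cell is led by Tac1.

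Cell by cell, the lines were led by different hormones at 4 days. The leading hormone of a cell is the one with the most transcripts after thinning, which can be compared between genes because each transcript is counted once from its 3' end. On the Gip plate Gip led 106 of 133 cells and Sst 24, much as in untreated wells, where Gip led 52 of 63 and Sst 11. On Gcg plate 1 Nts led 41 of 94 cells, Sct 12, Cck 6 and Gcg 4, while no hormone reached the minimum in 27, against 10 of 64 untreated cells. On Gcg plate 2 Nts led 11 of 24 cells, Gcg 4 and Pyy 3, and no hormone reached the minimum in 1. In untreated wells Gcg had led 32 of 64 and 52 of 75 cells of these plates, so the leading hormone of this line was no longer the reporter gene. On Tac1 plate 1 Sst led 28 of 41 cells and Sct 10, and on Tac1 plate 2 Sct led 8 of 15 and no hormone reached the minimum in 7. Sst had already led 39 of 68 untreated cells of Tac1 plate 1, and no hormone reached the minimum in 8 of 16 untreated cells of plate 2. Near-empty 4 day wells with under 500 transcripts held on average 12.31 Sst transcripts on the Gip plate and 5.25 on Tac1 plate 1. They held 8.77 Gip transcripts on the Gip plate, and 5.83 and 3.9 Nts transcripts on the Gcg plates. Tac1 led 0 of 41 and 0 of 15 cells at 4 days, which allows shares of up to 7.3% and 20%, against 17 of 68 and 6 of 16 in untreated wells.

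The shares of cells with at least 5 transcripts gave the same picture. Nts was found in 1.5% of Gip line cells, in 59.6% and 87.5% of cells on the Gcg plates, and in 0 of 41 and 0 of 15 cells on the Tac1 plates, which allows up to 7.3% and 20%. Pyy was found in 36.8% of Gip line cells, in 46.8% and 58.3% on the Gcg plates, and in 0% on both Tac1 plates. Gcg was found in 0.8% of Gip line cells, in 34.0% and 87.5% on the Gcg plates and in 0% on both Tac1 plates, against 71.9% and 94.7% in untreated wells of the Gcg plates. Near-empty 4 day wells of the Gcg plates, with under 500 transcripts, held 5.44 and 9.43 Gcg transcripts on average, above the minimum of 5, so a Gcg-positive cell is not read here as one that expresses the gene. Chga was found in 0.8% of Gip line cells, in 8.5% and 16.7% on the Gcg plates, and in 90.2% and 66.7% on the Tac1 plates. Near-empty wells also averaged 5.72 Chga transcripts on Tac1 plate 1 and 5.83 Nts transcripts on Gcg plate 1, above the same minimum. Cells positive for these genes on those plates are likewise not read as expressing them. The averages were 1.24 for Chga on Tac1 plate 2 and 3.9 for Nts on Gcg plate 2.

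The response genes of BMP itself were on in every line. Of 7 BMP targets tested, 1 (14.3%) differed among the lines, and of 6 receptors and Smads none did at an adjusted p under 0.05. With 11.1% of all tested genes called, these shares lie near the background and are not a result about the targets. Id1 was at 356.5 CPM on the Gip plate, at 193.4 and 185.8 CPM on the Gcg plates, and at 585.9 and 304.4 CPM on the Tac1 plates, against 0 to 17.3 CPM in untreated wells. It rose in each line, by log2 6.07 in Gip, 5.65 in Gcg and 5.42 in Tac1. At 4 days Gip differed from Gcg by log2 1.01 (95% interval -0.07 to 2.09, adjusted p = 0.50) and from Tac1 by log2 -0.36 (-1.48 to 0.77, adjusted p = 0.83). Gcg over Tac1 was log2 -1.36 (-2.31 to -0.42, adjusted p = 0.060) and was called in 4 of 15 alternatives (adjusted p 0.00019 to 0.48). Id3 had the same order, at 464.0 CPM on the Gip plate, at 202.9 and 249.7 CPM on the Gcg plates, and at 748.4 and 323.5 CPM on the Tac1 plates, with Gcg over Tac1 at log2 -1.40 (adjusted p = 0.064).

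Id2 was at 726.8 CPM on the Gip plate, at 384.3 and 755.0 CPM on the Gcg plates, and at 970.0 and 380.6 CPM on the Tac1 plates, so that the lines overlapped. Smad6, an inhibitory Smad that BMP induces, was at 53.7 CPM on the Gip plate, at 36.0 and 29.0 CPM on the Gcg plates, and at 54.2 and 66.6 CPM on the Tac1 plates, and it too was called higher at 4 days than untreated in each line. Bambi, a decoy receptor induced by BMP and TGF-beta, was the target that differed, at 136.0 CPM on the Gip plate, at 3.2 and 17.4 CPM on the Gcg plates, and at 14.8 and 9.5 CPM on the Tac1 plates. Gip was higher than Gcg by log2 4.54 ± 0.84 (adjusted p = 0.010), a call lost without Gcg plate 1 (adjusted p = 0.16; range over 13 alternatives 6.7e-08 to 0.45). Against Tac1 it was at the threshold and not called (log2 3.37 ± 0.89, adjusted p = 0.050). Tbx3, a T-box factor of the villus, was at 208.0 CPM on the Gip plate, at 240.5 and 296.2 CPM on the Gcg plates, and at 433.3 and 266.4 CPM on the Tac1 plates. Its intervals were -1.32 to 0.83 for Gip over Gcg, -1.90 to 0.32 for Gip over Tac1 and -1.45 to 0.36 for Gcg over Tac1, all on the log2 scale. Sstr1, a somatostatin receptor named after its values were seen, was at 155.4 CPM on the Gip plate, at 107.9 and 209.1 CPM on the Gcg plates, and at 339.8 and 171.3 CPM on the Tac1 plates, and rose in each line (log2 3.50, 4.61 and 3.72 in Gip, Gcg and Tac1).

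**Figure D4:**
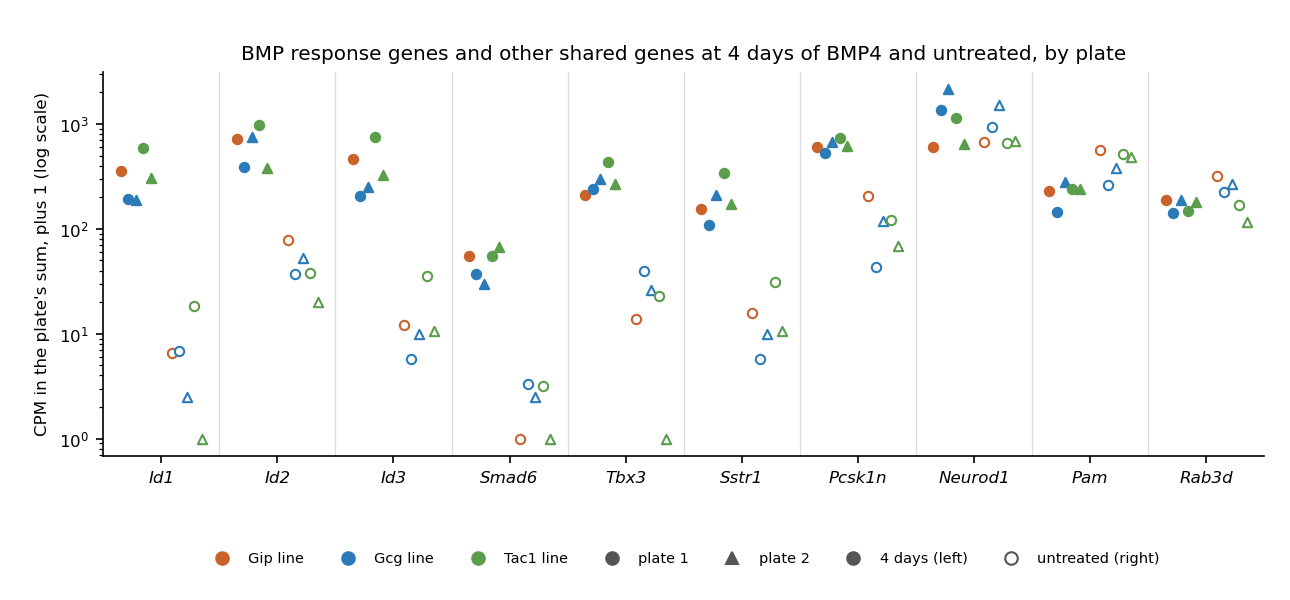
Levels of BMP response genes (Id1, Id2, Id3, Smad6, Tbx3, Sstr1) and of Pcsk1n, Neurod1, Pam and Rab3d, in CPM plus 1 on a log axis, each point 1 plate, filled at 4 days and open in untreated wells. Id1 is above 180 CPM on every plate at 4 days and at most 17.3 CPM in untreated wells. Rab3d spans 142.2 to 187.4 CPM and Pcsk1n 524.1 to 728.7 CPM over the 5 plates.

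Of the 190 listed genes in the files, 72 reached 20 CPM in every 4 day sum, and these were read for likeness by the ratio of their highest to lowest plate. That level was reached by 21.3% of all 16115 genes. The listed genes were on the whole less alike across lines than others at this level. Of the 72, 8 (11.1%) had a ratio under 2, against 31.9% of all such genes, and the median ratio was 4.06 against 2.41. As the lists hold markers of the sorted cell types and were chosen with earlier results known, this contrast is partly built in. The smallest ratios belonged to genes of several lists. Rab3d, a granule GTPase, was at 187.4 CPM on the Gip plate, at 142.2 and 185.8 CPM on the Gcg plates, and at 147.7 and 180.8 CPM on the Tac1 plates (ratio 1.32). Pcsk1n, a granin-like inhibitor of prohormone convertase 1, was at 602.2 CPM on the Gip plate, at 524.1 and 667.9 CPM on the Gcg plates, and at 728.7 and 618.4 CPM on the Tac1 plates (ratio 1.39). Pam, which amidates peptide hormones, was at 229.7 CPM on the Gip plate, at 143.8 and 278.8 CPM on the Gcg plates, and at 241.3 and 237.8 CPM on the Tac1 plates (ratio 1.94). Between these lay Syt13 and Resp18 of the granule at 1.72 and 1.91, Gch1, which makes the cofactor of serotonin synthesis, at 1.72 and the fatty acid activating Acsl1 at 1.85. Further ratios were 1.88 for Smad4, 2.08 for Tbx3, 2.24 for Smad1, 2.27 for Myt1 and 2.29 for Smad6. Neurod1, an endocrine lineage factor named after its values were seen, spanned 600.0 CPM on the Gip plate, 1363.0 and 2137 CPM on the Gcg plates, and 1137.4 and 637.4 CPM on the Tac1 plates (ratio 3.56).

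Few genes were called as changing by a different amount over the 4 days in different lines. The test of that difference called 10 of 9906 genes for Gip over Gcg (0.101%), 41 for Gip over Tac1 (0.414%) and 92 for Gcg over Tac1 (0.929%). A simulation of the Gcg over Tac1 test on 9274 genes recovered 8% of 4-fold and 28.8% of 8-fold differences in change. Small counts here therefore do not show equal change. The simulation capped the spread of each gene and added no plate or line effects, so its recovery rates are not those of the real sums. Within lines, 107 genes changed in Gip (1.08%), 149 in Gcg (1.5%) and 417 in Tac1 (4.21%). Among the hormones Pyy, Cck, Gcg and Ghrl were called as changing differently in Gip than in Gcg. Cck, Gcg and Ghrl were called as changing differently in Gip than in Tac1. Gcg was near the floor in the Gip sums, at 7.3 CPM untreated and 36.6 CPM at 4 days. Without Gcg plate 2 none of the 3 tests called a gene with edgeR, where 220, 354 and 495 genes had an unadjusted p under 0.05.

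Enterocyte and goblet genes were not uniform across the sorted cells. The 15 enterocyte genes summed to 7054.4 CPM on the Gip plate, 34585.7 and 11197.4 CPM on the Gcg plates, and 1900.6 and 1645.9 CPM on the Tac1 plates, where 0 and 6 genes were at 0. Of these genes 6 were lower in Gip than in Gcg (background 1.17%), 2 higher in Gip than in Tac1 (1.43%) and 12 higher in Gcg than in Tac1 (5.49%). Fabp2, an intestinal fatty acid binding protein, was at 51.4 CPM on the Gip plate, at 7168 and 470.4 CPM on the Gcg plates, and at 14.8 and 0 CPM on the Tac1 plates (Gip over Gcg log2 -6.16 ± 1.43, adjusted p = 0.038). The 8 goblet genes summed to 4403.2 CPM on the Gip plate, 24474.8 and 15872.6 CPM on the Gcg plates, and 2151.8 and 2102.6 CPM on the Tac1 plates, with 3 and 6 genes at 0 on the Tac1 plates.

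Goblet transcripts were spread unevenly over cells. Muc2, the main gel-forming mucin, was at 64.0 CPM on the Gip plate, at 1671 and 789.9 CPM on the Gcg plates, and at 14.8 and 0 CPM on the Tac1 plates (Gip over Gcg log2 -4.18, adjusted p = 0.01). Single cells held 85.8% of it on the Gip plate and 24.8% and 84.5% on the Gcg plates. It was detected in 6 of 135 cells on the Gip plate and in 59 of 95 and 9 of 24 cells on the Gcg plates. Tff3, a trefoil peptide of goblet cells, was detected in 32 of 41 cells of Tac1 plate 1, with 13.2% in the top cell. When only wells with at least 5 pan-endocrine marker transcripts were summed (78.5% of Gip cells, 58.9% and 75.0% of Gcg cells, 100.0% and 62.5% of Tac1 cells), the goblet sum was 2289.4 CPM on the Gip plate, 1517.5 and 600.9 CPM on the Gcg plates, and 2151.8 and 3087.4 CPM on the Tac1 plates. In those wells the enterocyte sum was still 7457.3 CPM, 20672.2 and 10291.0 CPM, and 1900.6 and 2426.8 CPM on the Gip, Gcg and Tac1 plates. The part of these genes in the line differences was not tested beyond that restriction, under which 230, 482 and 667 genes were called for Gip over Gcg, Gip over Tac1 and Gcg over Tac1.

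Wells that held almost no RNA were set beside the kept ones, as a measure of the transcripts found where there was little or no cell RNA. Wells of the 4 day columns with under 500 transcripts, a limit chosen after the values were seen, numbered 31 on the Gip plate, 57 and 142 on the Gcg plates, and 117 and 162 on the Tac1 plates. Nts on the Gcg plates, Gip on the Gip plate and Sct on every plate had higher CPM in kept than in near-empty wells. Nts was at 45774 and 72941 CPM in kept wells of the Gcg plates, against 27552 and 24258 CPM in near-empty ones, and Gip at 117435 CPM in kept wells of the Gip plate, against 55576 CPM in near-empty ones. For Sct, kept wells held 13299.8 CPM on the Gip plate, 15863 and 32239 CPM on the Gcg plates, and 3368 and 3455 CPM on the Tac1 plates, against 7986 CPM, 14863 and 6871 CPM, and 1113 and 712.8 CPM in near-empty wells. Gcg and Cck on the Gcg plates, Tac1 on the Tac1 plates and Sst on the Gip plate ran the other way. On Tac1 plate 1 so did Sst, at 6184 CPM in kept wells and 32575 CPM in near-empty ones, Chga, at 18728 and 35496 CPM, Chgb, at 18109 and 37673 CPM, and Reg4, at 16250.0 and 28598 CPM. On Tac1 plate 2 Chga, Chgb and Reg4 were higher in kept wells. Gcg was at 2119 and 4350.0 CPM in kept wells of the Gcg plates, against 25726 and 58594 CPM in near-empty ones, although a kept well held 27.9 and 31.2 Gcg transcripts on average, against 5.44 and 9.43. Tac1 was at 315.2 and 429.3 CPM in kept wells of the Tac1 plates, against 848.2 and 916.4 CPM in near-empty ones. The part of free RNA in the levels of kept cells was not tested.

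**Figure D5:**
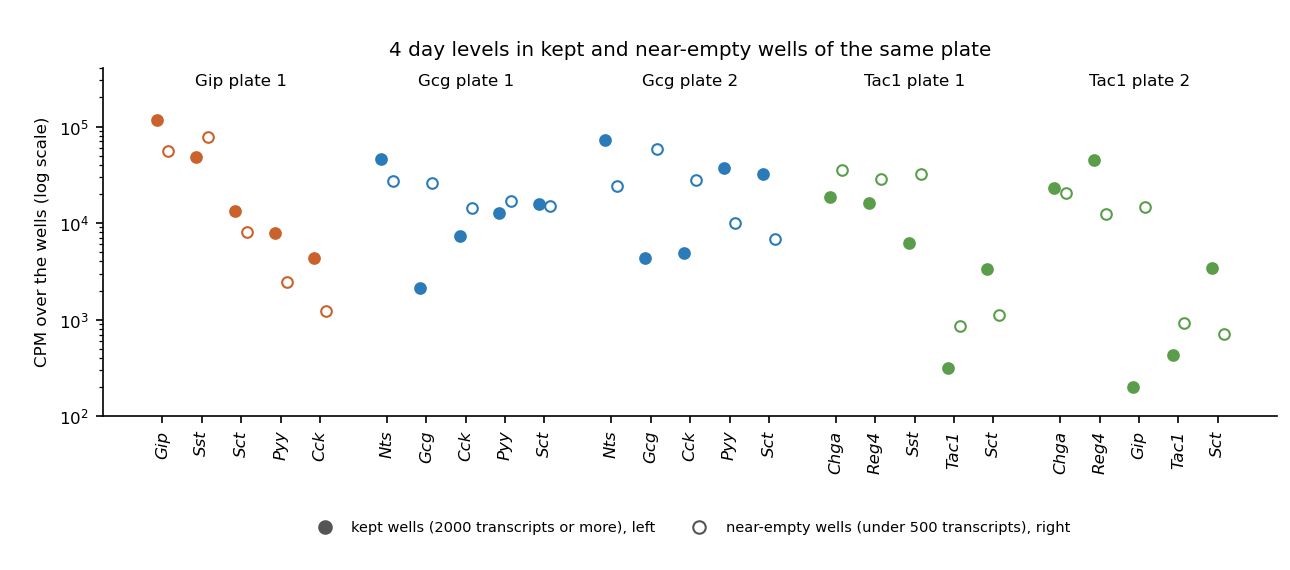
Levels of 5 genes on each plate in kept 4 day wells (filled points, at least 2000 transcripts) beside near-empty 4 day wells of the same plate (open points, under 500 transcripts), in CPM on a log axis. Gip and Nts are higher in kept wells of their lines, and Gcg is higher in near-empty wells of both Gcg plates.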

How the data were processed

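Per the labels, single cells were sorted into 384-well plates and sequenced with SORT-seq (75 bp paired-end reads, 4-base molecular identifiers). Per the submitters' processing notes, reads were mapped with BWA 0.6.2-r126 to mm10. The values the authors deposited are expected counts: transcripts per gene and well after correction for identifier collisions. Inverting that correction for 4096 identifiers gave counts within 0.01 of whole numbers for 100.0% of nonzero values in the files; 4096 is more than a 4-base identifier allows, so the identifier length stated and the values do not match. Conditions came from the wells' columns, and 1920 of 1920 wells matched the labels.

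Wells with at least 2000 transcripts outside spike-in and mitochondrial rows were kept, with 1 sorted cell per well and no doublet caller. Kept wells were summed per plate and condition over the 16115 genes common to both file forms; genes outside this set held 1.43% to 2.42% of 4 day transcripts. Sums were rounded and tested in R 4.3.3 with edgeR 4.0.16 (TMM, filterByExpr by line, quasi-likelihood F test, Benjamini-Hochberg adjustment, threshold 0.05), with line as the only term. Differences in the 4 day change were tested in all 10 sums with the plate as a block, since untreated and 4 day wells share a plate. DESeq2 1.42.0 was an alternative. On simulated data of 4713 genes, the 4 day Gcg over Tac1 test recovered 49.4% of 4-fold and 83.5% of 8-fold changes, with 4 false calls of 113. The simulation drew counts from the spread fitted to these sums and added no plate effects, nor line effects beyond the planted changes. Its recovery and false call rates are therefore not those of the real sums. Shares of cells were taken after thinning each cell once to 2000 transcripts; 4 kept cells with fewer in the common genes were left out.

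Genes and lists were chosen with earlier results of these data known. Named for each pair were the 8 largest rises and 8 largest falls among called genes with an average log2 CPM of 5 or more and no overlap of sums, every tested hormone and BMP target, up to 4 genes of each other list by smallest p, and up to 15 shared genes with the smallest ratio. The text describes those that bear on hormone cell identity. Where a line had 0 transcripts, a fold is a lower bound against 3 transcripts over the line; where it had 1 to 3, no fold is given. Some enterocyte genes are not reported here. Alternatives were other normalization, filters, well minimums, thinning, wells, plates, spread and pairing.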

Additional observations from a re-analysis of the deposited data

Results flagged for a closer look

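The 4 day change in expression, tested as an interaction between line and BMP4, differed between lines for 10 named results, 7 of them among hormones. Between the Gip and Gcg lines the log2 change over 4 days differed by 4.64 ± 0.75 for Cck (adjusted p = 0.0011), by 6.51 ± 1.02 for Gcg (adjusted p = 0.00093), by 4.15 ± 0.88 for Ghrl (adjusted p = 0.035), by 4.65 ± 0.77 for Pyy (adjusted p = 0.0011) and by 5.1 ± 0.85 for Zg16, a goblet cell lectin (adjusted p = 0.0012), all more positive in Gip. The Gcg and Ghrl changes were log2 -4.12 and -2.26 in the Gcg line, where they passed the test, and 2.39 (adjusted p = 0.46) and 1.90 (adjusted p = 0.26) in the Gip line, where they did not. In the 4 day Gip sum Gcg was 32 transcripts in 8 of 135 cells, with 59.4% in 1 cell. Its untreated level there was 7.3 CPM, so the Gip side of the Gcg result is near the floor. On the same plate 3 cells held 55.0% of the Ghrl and 63.1% of the Cck transcripts. The Ghrl call was also lost without Gcg plate 1 (2.02, adjusted p = 0.20; range over 8 alternatives 1.4e-10 to 1).

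For Zg16, 1 cell held 94.1% of the transcripts of the 4 day Gip sum, and in wells with pan-endocrine markers the difference was 1.18 (adjusted p = 1; range over 8 alternatives 1.1e-06 to 1). Between the Gip and Tac1 lines the change differed by 4.09 for Asic5 (adjusted p = 0.032), by 4.83 for Cck (adjusted p = 0.0053), by 5.64 for Gcg (adjusted p = 0.028) and by 5.1 for Ghrl (adjusted p = 0.022). These 4 calls were lost without Tac1 plate 1, with differences of 0.55, 2.73, 2.40 and 1.89 and an adjusted p of 1 for each. Between the Gcg and Tac1 lines the change of Serpina1e, a serine protease inhibitor of the alpha-1-antitrypsin family, differed by -5.56 ± 1.03 (adjusted p = 0.0022). Serpina1e was at 81.5 and 46.5 CPM at 4 days on the Gcg plates and at 172.3 and 323.5 CPM on the Tac1 plates, against 31.6 and 31.2 CPM and 0 and 9.6 CPM in their untreated wells. Without the Gip plate its difference was -5.59 (adjusted p = 0.052; range over 9 alternatives 5.5e-05 to 0.55). All 10 results were lost without Gcg plate 2 and without the plate as a block, and causes were not tested.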

How the results depend on the processing

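Leaving out 1 plate moved the 4 day counts of called genes over 0 to 472 for Gip over Gcg, 0 to 387 for Gip over Tac1, 0 to 739 for Gcg over Tac1 and 0 to 1002 for any difference; in untreated wells over 241 to 745, 462 to 675 and 799 to 1478; and for the difference in change over 0 to 75, 0 to 96 and 0 to 167. The value of 0 is without Gcg plate 2 throughout, and without the Gip plate the difference in change between Gcg and Tac1 called 11 genes. In the order Gip over Gcg, Gip over Tac1, Gcg over Tac1 and any difference, no filter on low counts gave 333, 413, 1073 and 1153 calls at 4 days, a spread shared with all sums 252, 419, 1139 and 1199, and 4000 transcripts per well 55, 110, 346 and 366. Wells with pan-endocrine markers gave 230 for Gip over Gcg and 482 for Gip over Tac1, 1000 transcripts per well 318 for Gip over Tac1, thinned cells 396 for Gcg over Tac1, and 2 further Tac1 plates 66 for Gip over Gcg. DESeq2 gave 70 (21 higher, 49 lower), 151 (34 higher, 117 lower) and 442 (154 higher, 288 lower) for the 3 pairs at 4 days, against 55 higher and 66 lower, 81 and 129, and 311 and 317 with edgeR. In untreated wells DESeq2 gave 157, 240 and 672 calls, and wells with pan-endocrine markers 1042 for Gip over Tac1. For the difference in change, DESeq2 gave 5, 10 and 22, no replicate block 0, 0 and 4, DESeq2 size factors in edgeR 23 for Gip over Gcg, and wells with pan-endocrine markers 67 for Gip over Tac1.

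The deviations of Gcg plate 1 and Tac1 plate 1 from their line means had a correlation of 0.027 over 3607 genes. With 2 plates in each line this is a single value, which cannot tell whether same-numbered plates are paired. A replicate block by plate number gave 695 calls of 3607 genes for Gcg over Tac1. Without the block there were 583 of 3607, both fits leaving out the Gip plate. Of the 160 named differences at 4 days, DESeq2 ended 41 calls, 4000 transcripts per well 32, 2 further Tac1 plates 18 and thinned cells 12. None of the differences whose direction turned had been called except those of Nts and B2m. They were Id1 (-0.70 to 0.16 over plates left out), Id2 (-0.40 to 0.87) and Id3 (-0.67 to 0.45) for Gip over Tac1, Id2 for Gcg over Tac1 (-0.84 to 0.42), Id2 Gip over Tac1 with 2 further Tac1 plates (-0.08) and at 4000 transcripts per well (-0.05), Nts Gip over Tac1 with 2 further Tac1 plates (-0.10), and B2m, of antigen presentation, Gcg over Tac1 in wells with pan-endocrine markers (-0.02). The share of Sct-positive cells was 91.0% on the Gip plate, 80.9% and 95.8% on the Gcg plates and 75.6% on Tac1 plate 1 at a minimum of 1 transcript, and 48.1% on the Gip plate and 29.3% on Tac1 plate 1 at 10. In wells with pan-endocrine markers it was 96.4% and 94.4% on the Gcg plates and 80.0% on Tac1 plate 2. The cause of these moves was not tested, except that a plate left out leaves fewer plates to estimate the spread.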

Other observations

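The 2 further Tac1 plates, which held 4 day wells only and gave 30 and 45 kept cells, had other hormone levels than the Tac1 plates compared above. Nts was at 10.2 and 1003 CPM, Sst at 285.3 and 21988 CPM and Gip at 19970 and 1427 CPM on them. Cartpt, a neuropeptide gene of some enterochromaffin cells, was at 733.6 and 249.0 CPM, against 54.2 and 28.5 CPM on Tac1 plates 1 and 2. Sct was at 5431 and 5277 CPM, close to the 3368 and 3454 CPM of those plates. Non-coding Kcnq1ot1 was abundant in every line at 4 days, at 44692 CPM on the Gip plate, 26135 and 38297 CPM on the Gcg plates, and 62288 and 99649 CPM on the Tac1 plates. Its untreated levels were 3983 CPM, 21637 and 10246 CPM, and 8419 and 17834 CPM on the same plates, and no pair of lines passed the test at 4 days.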
